A study of Mus musculus with 26 samples.

Results

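The genes described here are 51 mouse genes of DNA repair and of the DNA damage checkpoint, followed in S49 T lymphoma cells while cyclic AMP (cAMP) was raised for up to 24 h. They were chosen by name, from textbook repair pathways, and each was matched to the array's platform annotation through its current or an older symbol. Of the 51 genes, 47 had a probe set of their own, and all 47 passed the filter on dim probe sets, out of 7432 genes measured in all. Xrcc2, Fancd2, Lig4 and Neil1 had no probe set under their own symbol and are not analysed here. The brightest probe set stood for each gene.

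Raised cAMP arrests and kills S49 WT (wild-type) cells, and the deathless variant (D-) survives it. Both lines were given 8-CPT-cAMP, a cAMP analogue that enters cells and activates protein kinase A, and RNA was read on single-colour Affymetrix arrays. The groups were D- cells and WT cells, each untreated (4 arrays per line) or treated for 2, 6 and 24 h (3 arrays per line and time), 26 arrays in 8 groups. The labelled dose, 100 mM, may carry a unit error, and the titles of treated WT samples call them untreated although their other labels give the treatment, so they were used as treated. All cells were grown in suspension with horse serum, and D- is 1 variant line, so a difference between D- and WT belongs to these lines. Replicates are labelled biological, but no separate cultures are described, so the spread behind each p-value may be partly technical.

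DNA repair is divided among pathways that each handle a kind of damage. Homologous recombination copies an intact sister chromatid to mend a broken one, end joining ligates broken ends directly, base excision and mismatch repair replace wrong bases, and nucleotide excision repair cuts out bulky lesions. The damage checkpoint kinases Atm, Atr, Chek1 and Chek2 halt the cell cycle while repair proceeds. Recombination, mismatch correction and the Atr and Chek1 branch act mainly on replicating DNA, and the RNA of several of their genes is highest in S phase of dividing cells.

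Values are log2 of the authors' GCRMA intensity, and a change is the difference of 2 group means with the standard error (SE) of the limma fit. A change was called where its Benjamini-Hochberg adjusted p, over all 12724 probe sets tested, was under 0.05. Arrays of 1 group correlated at r between 0.9717 and 0.995 over probe sets (a description, since probe sets are not replicates), and the number of arrays limits the precision. The arrays formed 2 clusters that no label names, along a first axis that held 38.8% of the spread around group means. Cluster 1 held replicates 1 and 2 of untreated D- and of untreated WT cells and replicate 1 of every treated group (10 arrays), and cluster 2 held the other 16. Gapdh signal toward the 3' end minus that toward the 5' end, a sign of RNA quality, averaged -0.146 ± 0.058 in cluster 1 (SD, n = 10) and 0.018 ± 0.0942 in cluster 2 (SD, n = 16), and its part in the results was not tested. The T cell markers Cd3e, Cd3g, Cd3d, Thy1, Zap70 and Cd28 were above log2 5 on every array, Cd5 was under 5 on every array, and Cd247 ranged from 4.20 to 10.30. The log2 of that list's summed intensity lay between 14.85 and 14.94 in D- cells at 24 h and between 14.12 and 14.39 in untreated D- cells, and between 14.88 and 15.21 in WT cells at 24 h and between 14.33 and 14.57 in untreated WT cells. Myeloid markers Lyz2, Cd68 and Mpo, 3 of 5, were under log2 5 on every array, as were all measured erythroid and stromal markers, while Csf1r was above 5 on every array and Itgam ranged from 3.54 to 7.10. Of the B cell markers Cd79b and Ms4a1 were under 5 on every array, and Cd79a ranged from 4.66 to 5.82. The log2 of the summed myeloid list lay between 6.75 and 7.55 in D- cells at 24 h and between 6.60 and 6.96 in untreated D- cells, and between 6.85 and 7.80 in WT cells at 24 h and between 6.64 and 6.85 in untreated WT cells. The part of these lists in the results at 24 h was not tested.

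Repair genes fell in both lines, and the highest count of falls was that of WT cells at 24 h. At 2 h, 14 of 47 genes fell and 2 rose in D- cells (lower in 12.4% and higher in 9.29% of all probe sets). In WT cells 8 fell and 5 rose at 2 h (13.1% and 11.6% of all probe sets), counts near the shares over all probe sets. At 6 h, 19 fell and 4 rose in D- cells (14.9% and 15.4%, or 30.4% in either direction), and 18 fell and 4 rose in WT cells (18.6% and 17.6%, or 36.2%). At 24 h, 12 fell and 4 rose in D- cells (17.4% and 16%, or 33.4%), while 33 fell and 5 rose in WT cells (28% and 24.6%, or 52.6%). Leaving out D- 24 h replicate 2 lowered the 16 calls in D- cells at 24 h to 8 (33.4% of all probe sets to 24.2%), and leaving out any 1 array gave between 33 and 37 calls in WT cells at 24 h. The median change of the 47 genes was -0.23, -0.34 and -0.20 at 2, 6 and 24 h in D- cells and -0.18, -0.26 and -0.85 in WT cells, where the medians over all probe sets lay between -0.03 and 0.01. Of the genes that fell in WT cells at 24 h, 19 fell by at least 2-fold, as did 1311 of all 12724 probe sets. In D- cells at 24 h no gene passed 2-fold in a called change. Of all 12724 probe sets, 405 fell and 727 rose there by at least 2-fold. Only Wrn, the helicase lost in Werner syndrome, was called by limma at no time in either line, with changes between -0.30 and 0.25.

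**Figure D1:**
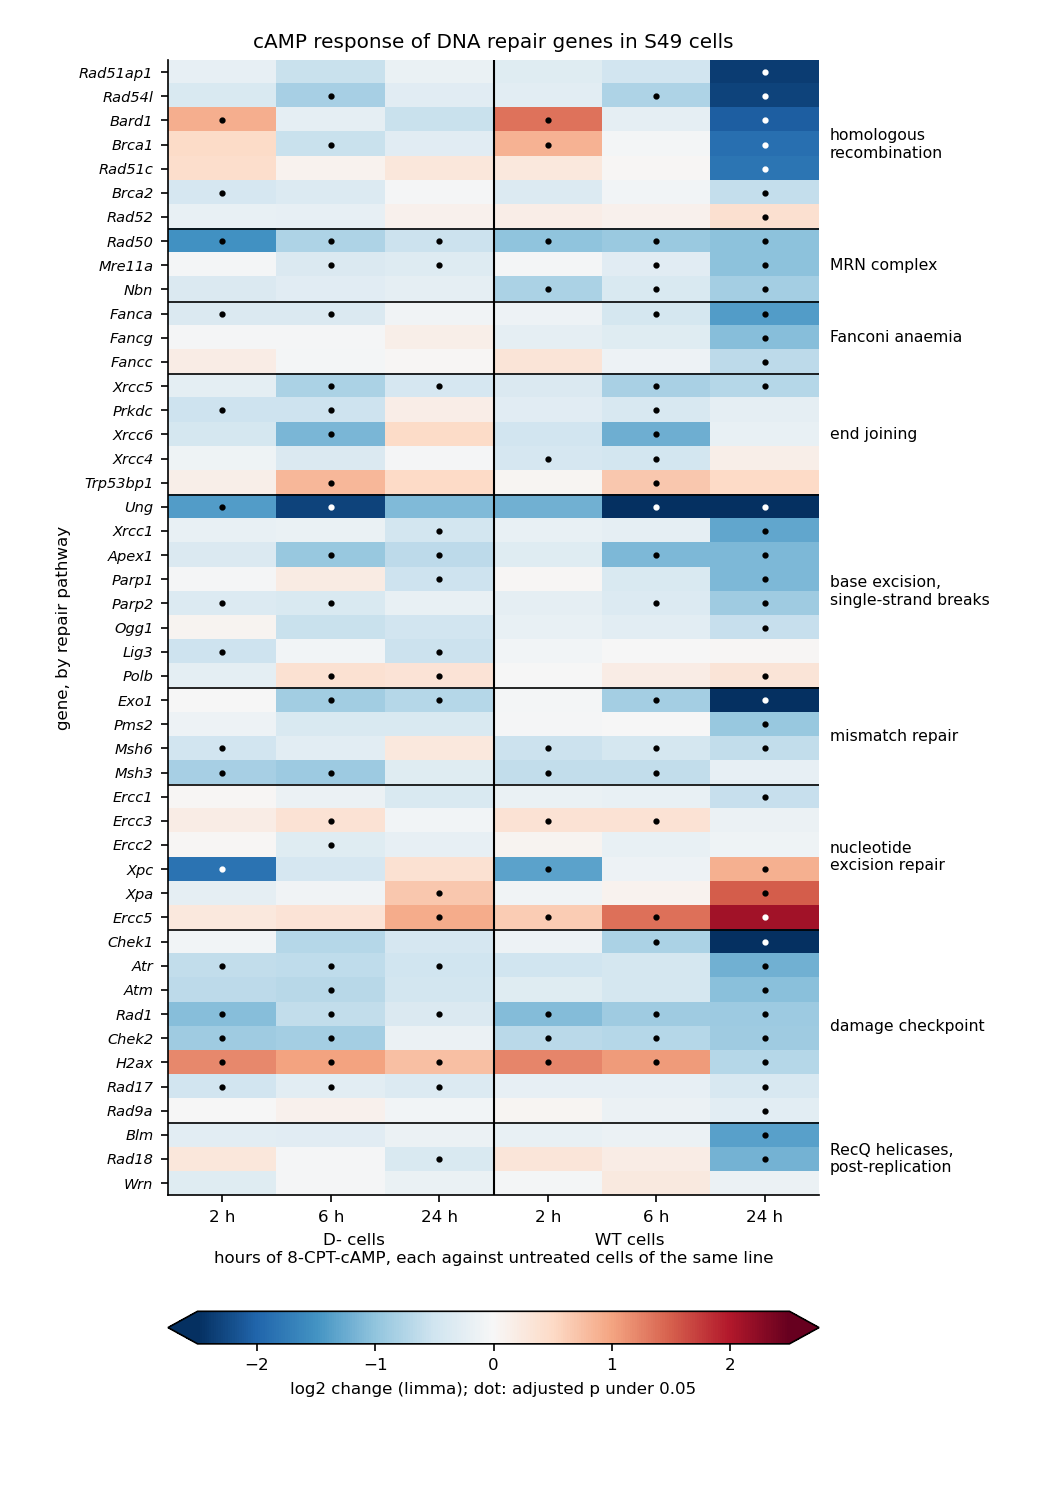
Log2 change of each of the 47 repair genes (down the page, by pathway) at 2, 6 and 24 h of 8-CPT-cAMP against untreated cells of the same line, D- on the left and WT on the right. Blue is lower and red higher than untreated, and a dot marks adjusted p under 0.05 in limma. Colours saturate past 2.5 in either direction, and the WT 24 h column holds 33 falls and 5 rises.

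Most homologous recombination genes fell in WT cells at 24 h. In D- cells 0 of 7 measured genes were called by limma at that time (33.4% of all probe sets), with a median of -0.16. Of these, 1 had an unadjusted p under 0.05. In WT cells 6 fell and 1 rose (28% and 24.6% of all probe sets), with a median of -1.88. Rad51ap1, a DNA-binding protein of homologous recombination, read 9.76, 9.30 and 9.61 in D- cells at 24 h, against 9.58, 9.93, 9.61 and 9.72 in untreated D- cells. WT cells read 8.20, 6.71 and 7.29 at 24 h, against 9.78, 9.60, 9.95 and 9.75 before treatment. All treated WT arrays lay below every untreated array, and those of D- overlapped. The D- change was -0.16 ± 0.21 (SE, limma adjusted p = 0.627), and the WT change was -2.37 ± 0.21 (limma adjusted p = 7.03e-09), a 5.18-fold fall.

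Rad54l, a motor that remodels the recombination intermediate, read 8.39, 7.93 and 8.32 in D- cells at 24 h, against 8.62, 8.57, 8.38 and 8.40 in untreated D- cells. WT cells gave 6.99, 5.45 and 5.92 for it at 24 h, against 8.38, 8.22, 8.56 and 8.59 before treatment. The groups overlapped in D- and stood apart in WT cells, where the change was -2.32 ± 0.22 (SE, limma adjusted p = 2.2e-08). Rad51c, a protein that also acts in homologous recombination, had 7.60, 7.29 and 7.66 in D- cells at 24 h, against 7.26, 7.17, 7.14 and 7.32 in untreated D- cells. In WT cells Rad51c had 6.00, 5.33 and 4.80 at 24 h, against 6.98, 7.22, 7.27 and 7.36. Treated WT arrays lay below all the others, with a change of 0.29 ± 0.18 in D- cells (SE, not called) and of -1.83 ± 0.18 in WT cells (limma adjusted p = 2.12e-08).

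Brca1 and its partner Bard1 were called higher at 2 h and lower at 24 h in WT cells. Brca1, a ubiquitin ligase that steers breaks to recombination, averaged 8.90 ± 0.27 in untreated D- cells (SD, n = 4) and 9.37 ± 0.14, 8.35 ± 0.16 and 8.61 ± 0.30 at 2, 6 and 24 h (SD, n = 3 each). There limma called only the 6 h change, -0.55 ± 0.21 (SE, adjusted p = 0.0484), and leaving out any of 6 arrays ended this call (adjusted p up to 0.14). In WT cells the mean of Brca1 was 8.72 ± 0.20 untreated (SD, n = 4) and 9.59 ± 0.24, 8.68 ± 0.31 and 6.84 ± 0.50 at the same times (SD, n = 3 each). It rose in WT cells at 2 h by 0.87 ± 0.21 (SE, limma adjusted p = 0.00297) and fell at 24 h, with a change of -1.88 ± 0.21 (limma adjusted p = 1.3e-07).

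Bard1, the partner that Brca1 needs to be stable, read 7.43, 6.94 and 6.86 in D- cells at 2 h, against 6.29, 6.59, 5.89 and 5.95 untreated. WT arrays gave 7.13, 7.57 and 7.49 at 2 h, against 5.89, 6.66, 5.77 and 5.79 untreated. Every 2 h array was above every untreated array in both lines, with a rise of 0.90 ± 0.25 in D- cells (SE, limma adjusted p = 0.0121, 0.0817 without D- 2 h replicate 1) and of 1.36 ± 0.25 in WT cells (limma adjusted p = 0.000321). At 24 h the D- arrays read 6.00, 4.97 and 5.88 and overlapped the untreated arrays, with a change of -0.56 ± 0.25 that was not called. The WT arrays at 24 h read 3.92, 3.63 and 4.33, all under log2 5, so the fall is given as a bound of -1.03 on the log2 scale. The limma adjusted p of 5.35e-07 is that of the values as measured, not of the bound.

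Brca2, a tumour suppressor of homologous recombination, changed by -0.03 ± 0.14 in D- cells at 24 h (SE, not called) and fell by -0.60 ± 0.14 in WT cells (limma adjusted p = 0.00117). Rad52, a strand-annealing protein, changed by 0.10 ± 0.13 in D- cells at 24 h (SE, not called) and rose in WT cells. It read 7.22, 7.37 and 7.09 in WT cells at 24 h, against 6.95, 7.01, 6.60 and 6.69 untreated, which did not overlap, and the change of 0.41 ± 0.13 (SE, limma adjusted p = 0.0127) had an adjusted p of 0.072 without WT 24 h replicate 2.

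The MRN complex binds broken ends and recruits Atm. Of its 3 genes, 2 fell in D- cells at 24 h (17.4% of all probe sets) and all 3 in WT cells (28%). Rad50, its long coiled-coil subunit, read 8.31, 8.47 and 8.83 in D- cells at 24 h, against 8.93, 9.37, 9.03 and 8.98 untreated. Values in WT cells were 8.28, 8.09 and 8.30 at 24 h, against 9.19, 9.16, 9.31 and 9.34 untreated. Rad50 was already low at 2 h, when D- arrays read 7.59, 7.74 and 7.36 and WT arrays 8.36, 8.21 and 8.15. Treated and untreated arrays did not overlap at any of these times. The D- changes were -1.51 ± 0.15, -0.78 ± 0.15 and -0.54 ± 0.15 at 2, 6 and 24 h (SE, limma adjusted p = 1.35e-07, 0.000408 and 0.00781), and the WT changes were -1.01 ± 0.15, -0.92 ± 0.15 and -1.02 ± 0.15 (limma adjusted p = 2.84e-05, 5.84e-05 and 6.34e-06). The D- adjusted p at 24 h was 0.052 without D- 24 h replicate 1.

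Mre11a, the nuclease of the complex, had 10.02, 9.76 and 10.25 in D- cells at 24 h, against 10.31, 10.37, 10.32 and 10.37 untreated. WT cells read 9.63, 9.17 and 9.50 at 24 h, against 10.40, 10.38, 10.44 and 10.61 untreated. It fell in both lines, by -0.33 ± 0.11 in D- cells (SE, limma adjusted p = 0.0243, but 0.213 without D- 24 h replicate 2) and by -1.02 ± 0.11 in WT cells (limma adjusted p = 1.25e-07). Nbn, the adaptor that docks Atm, was called at no time in D- cells, with changes of -0.36 ± 0.14, -0.28 ± 0.14 and -0.23 ± 0.14 at 2, 6 and 24 h (SE). In WT cells Nbn fell at each time, with changes of -0.80 ± 0.14, -0.38 ± 0.14 and -0.85 ± 0.14, and leaving out any of 4 arrays ended the 6 h call (limma adjusted p up to 0.167).

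The 3 measured Fanconi anaemia genes belong to a core complex that acts in the repair of crosslinked strands. At 24 h limma called 0 of 3 in D- cells (0 with an unadjusted p under 0.05), against 33.4% of all probe sets. In WT cells all 3 fell (28% of all probe sets). Fanca read 8.00, 7.76 and 7.82 in D- cells at 24 h, against 7.81, 7.96, 7.99 and 8.02 untreated. WT arrays gave 6.96, 6.36 and 6.82 at 24 h, against 7.99, 8.19, 8.14 and 8.11 untreated. The D- arrays overlapped and the WT arrays stood apart by more than a log2 unit, with changes of -0.09 ± 0.13 in D- cells (SE, not called) and -1.39 ± 0.13 in WT cells (limma adjusted p = 9.3e-09). Fancg had 6.27, 6.81 and 6.78 in D- cells at 24 h, against 6.46, 6.46, 6.32 and 6.62 untreated. Values in WT cells were 5.34, 5.68 and 5.99 at 24 h, against 6.33, 6.27, 7.09 and 7.23 untreated. Its untreated WT arrays were spread over almost a log2 unit, and the WT change was -1.06 ± 0.27 (SE, limma adjusted p = 0.00203). The dimmer Fancg probe set gave -0.48 ± 0.20 in WT cells (limma adjusted p = 0.0449). Fancc fell in WT cells by -0.65 ± 0.15 (SE, limma adjusted p = 0.00104) on its brightest probe set, while its other probe set gave 0.27 ± 0.14 (limma adjusted p = 0.114).

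Of 8 measured checkpoint genes, 3 fell and 1 rose in D- cells at 24 h (17.4% and 16% of all probe sets), with a median of -0.35. In WT cells all 8 fell (28% of all probe sets), with a median of -0.90. Chek1, the kinase that Atr switches on at stalled forks, read 8.95, 8.45 and 8.70 in D- cells at 24 h, against 9.13, 9.38, 8.74 and 9.21 untreated. In WT cells Chek1 read 7.64, 5.60 and 6.14 at 24 h, against 9.14, 9.05, 9.58 and 9.29 untreated. The WT arrays at 24 h lay far below the untreated ones but also far from each other, with replicate 1 the highest, and the D- arrays overlapped. The change was -0.42 ± 0.30 in D- cells (SE, limma adjusted p = 0.311) and -2.80 ± 0.30 in WT cells (limma adjusted p = 7.6e-08), a 6.99-fold fall. A dimmer Chek1 probe set gave -3.03 ± 0.26 in WT cells, and the dimmest gave -0.44 ± 0.13.

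Atr, the kinase that senses single-stranded DNA, read 7.13, 6.97 and 7.35 in D- cells at 24 h, against 7.57, 7.72, 7.47 and 7.79 untreated. WT cells read 7.08, 6.36 and 6.67 at 24 h, against 7.73, 7.73, 8.33 and 7.82 untreated. Its groups did not overlap in either line, with a fall of -0.49 ± 0.18 in D- cells (SE, limma adjusted p = 0.0433, up to 0.184 when any of 5 arrays was left out) and of -1.20 ± 0.18 in WT cells (limma adjusted p = 9.3e-06). Atm, which responds to broken ends, changed by -0.46 ± 0.26 in D- cells (not called) and by -1.05 ± 0.26 in WT cells (limma adjusted p = 0.00154). Chek2, the kinase that Atm activates, fell in D- cells at 2 and 6 h, by -0.89 ± 0.14 and -0.85 ± 0.14, and at 24 h stood at 8.01 ± 0.08 (SD, n = 3), against 8.16 ± 0.30 in untreated D- cells (SD, n = 4). In WT cells Chek2 fell at every time, by -0.67 ± 0.14, -0.71 ± 0.14 and -0.89 ± 0.14 at 2, 6 and 24 h. Rad1, a subunit of the sliding clamp that marks damage, fell in both lines at every time, by -1.07 ± 0.13, -0.61 ± 0.13 and -0.36 ± 0.13 in D- cells and by -1.08 ± 0.13, -0.88 ± 0.13 and -0.91 ± 0.13 in WT cells. The D- call for Rad1 at 24 h was ended by leaving out any of 5 arrays (adjusted p up to 0.132). Rad17, which loads that clamp, changed by -0.34 ± 0.09 in D- cells and -0.41 ± 0.09 in WT cells at 24 h, both called (adjusted p 0.0643 in D- cells without D- 24 h replicate 2). The clamp subunit Rad9a changed least of the list in WT cells, -0.26 ± 0.11 (SE, limma adjusted p = 0.0442), its arrays overlapped, and leaving out any of 6 arrays ended the call (adjusted p up to 0.341).

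H2ax, the histone variant phosphorylated around breaks, was called in opposite directions in the lines. It read 10.49, 10.29 and 10.21 in D- cells at 24 h, against 9.46, 9.85, 9.63 and 9.36 untreated. WT arrays gave 9.95, 8.59 and 9.07 at 24 h, against 10.02, 10.12, 9.91 and 9.58 untreated. In D- cells every treated array was above every untreated one, while in WT cells replicate 1 lay among the untreated arrays and the other two below them. The change at 24 h was 0.76 ± 0.21 in D- cells (SE, limma adjusted p = 0.00866) and -0.71 ± 0.21 in WT cells (limma adjusted p = 0.00814), and the WT adjusted p was 0.116 without WT 24 h replicate 2. H2ax had risen in both lines at 2 and 6 h, with means of 10.77 ± 0.18 and 10.57 ± 0.26 in D- cells (SD, n = 3 each) and 11.13 ± 0.09 and 10.98 ± 0.16 in WT cells (SD, n = 3 each).

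**Figure D2:**
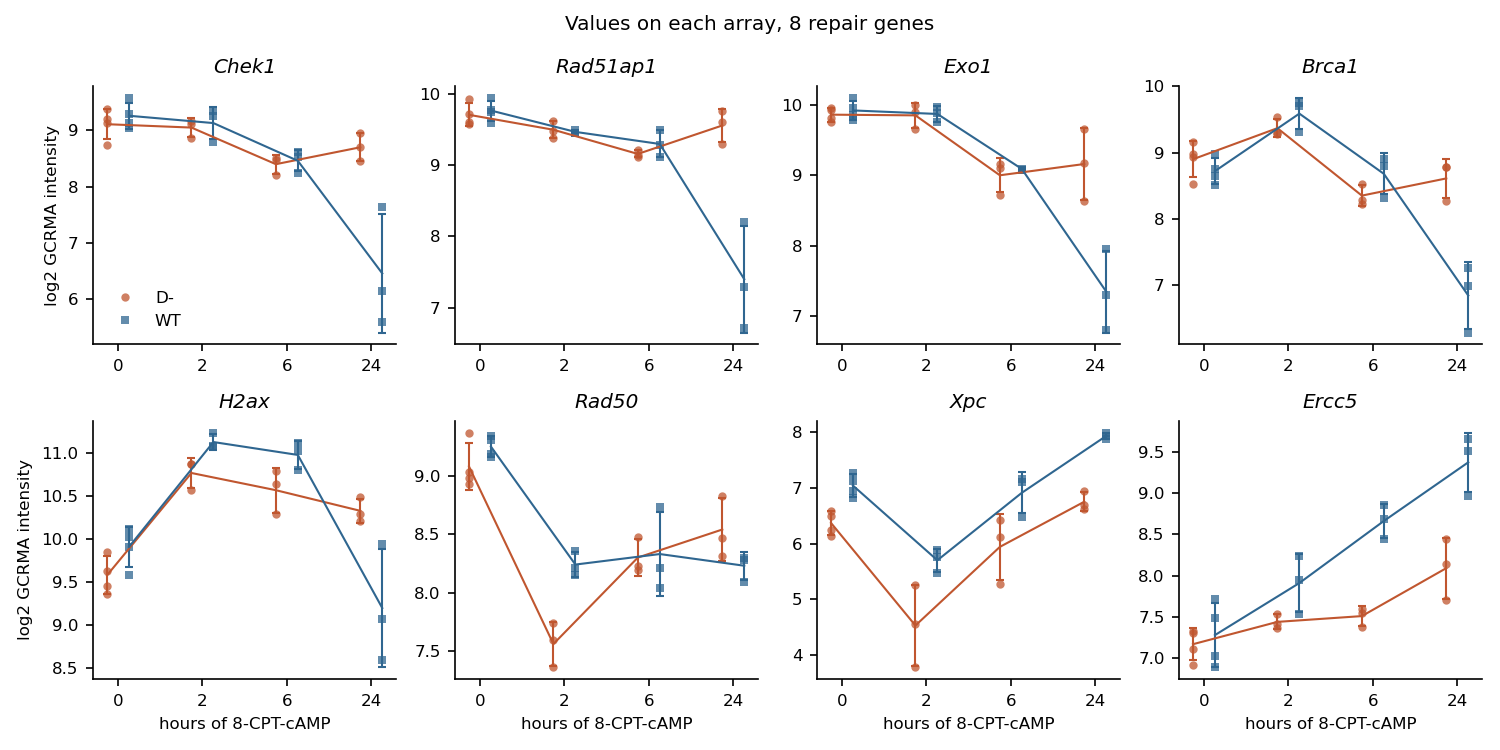
Log2 GCRMA intensity on every array for 8 repair genes at 0 (untreated), 2, 6 and 24 h of 8-CPT-cAMP, evenly spaced, with D- as orange circles and WT as blue squares. Lines join group means, bars are SD, n = 4 at 0 h and 3 at each later time. Chek1, Rad51ap1, Exo1 and Brca1 drop in WT at 24 h, Rad50 and Xpc are lowest at 2 h in D-, and Ercc5 climbs in both.

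Base excision and single-strand break repair fell in part in both lines. At 24 h 4 of 8 genes were lower and 1 higher in D- cells (17.4% and 16% of all probe sets). In WT cells 6 were lower and 1 higher (28% and 24.6%). Ung, the glycosylase that removes uracil from DNA, read 9.65, 8.56 and 8.73 in D- cells at 24 h, against 10.29, 10.59, 9.67 and 9.76 untreated. Values in WT cells were 8.26, 5.79 and 6.20 at 24 h, against 10.45, 10.27, 9.58 and 9.70 untreated. Its treated arrays lay below the untreated ones in both lines, with replicate 1 highest in both 24 h groups. The change was -1.10 ± 0.48 in D- cells (SE, limma adjusted p = 0.0865) and -3.25 ± 0.48 in WT cells (limma adjusted p = 6.98e-06), the largest fall among the 47 genes. Ung had already fallen at 6 h in both lines, by -2.31 ± 0.48 in D- cells (limma adjusted p = 0.00087) and -2.54 ± 0.48 in WT cells (limma adjusted p = 0.000285).

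Xrcc1, the scaffold of single-strand break repair, had 8.57, 8.20 and 8.47 in D- cells at 24 h, against 8.68, 8.90, 8.89 and 8.97 untreated. WT cells read 7.63, 7.24 and 7.29 at 24 h, against 8.75, 8.77, 8.61 and 8.62 untreated. It fell in both lines without overlap, by -0.45 ± 0.11 in D- cells (SE, limma adjusted p = 0.00418) and -1.30 ± 0.11 in WT cells (limma adjusted p = 6.93e-09). Apex1, the nuclease that cuts at sites left by a removed base, had 11.47, 10.92 and 11.01 in D- cells at 24 h, against 11.80, 12.04, 11.57 and 11.76 untreated, a change of -0.66 ± 0.20 (SE, limma adjusted p = 0.0153). The D- call for Apex1 was lost without D- 24 h replicate 2 or 3 (adjusted p up to 0.0892), and in WT cells it fell by -1.12 ± 0.20 (limma adjusted p = 8.21e-05). Parp1, which senses nicks and builds ADP-ribose chains, read 10.89, 11.19 and 11.22 in D- cells at 24 h, against 11.54, 11.96, 11.43 and 11.53 untreated. It fell by -0.52 ± 0.17 in D- cells (SE, limma adjusted p = 0.0223, up to 0.102 without D- 24 h replicate 1 or untreated D- replicate 2) and by -1.12 ± 0.17 in WT cells (limma adjusted p = 8.9e-06). Its relative Parp2 changed by -0.19 ± 0.12 in D- cells, not called, and by -0.88 ± 0.12 in WT cells. Ogg1, which removes oxidised guanine, changed by -0.48 ± 0.22 in D- cells, not called, and by -0.58 ± 0.22 in WT cells (limma adjusted p = 0.0289), a call that leaving out any of 3 arrays ended (adjusted p up to 0.238).

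Polb, the gap-filling polymerase, rose. It read 10.16, 10.11 and 10.45 in D- cells at 24 h, against 9.77, 10.00, 9.96 and 9.84 untreated, a rise of 0.34 ± 0.11 (SE, limma adjusted p = 0.0212), and it rose by 0.32 ± 0.11 in WT cells (limma adjusted p = 0.0201), where the arrays overlapped. These calls were ended by leaving out any of 3 arrays in D- cells or of 2 in WT cells (adjusted p up to 0.158 in each line). Its 2 other probe sets gave 0.13 and 0.45 in WT cells at 24 h, neither called. Lig3, the ligase that seals the last nick, read 7.34, 7.51 and 7.84 in D- cells at 24 h, against 8.13, 8.24, 7.97 and 8.06 untreated, and was the 1 gene called lower at 24 h in D- cells but not in WT cells. Its D- change was -0.53 ± 0.12 (SE, limma adjusted p = 0.0014) and its WT change 0.02 ± 0.12, but among the dimmer Lig3 probe sets 2 fell in WT cells too, by -0.48 ± 0.12 and -0.78 ± 0.30.

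In mismatch repair 1 of 4 genes fell in D- cells at 24 h (17.4% of all probe sets) and 3 of 4 in WT cells (28%). Exo1, the exonuclease that removes the strand with the error and also trims ends for recombination, read 9.66, 8.63 and 9.17 in D- cells at 24 h, against 9.81, 9.93, 9.75 and 9.96 untreated. WT arrays gave 7.96, 6.80 and 7.30 at 24 h, against 9.86, 9.95, 10.10 and 9.79 untreated. Treated arrays were below untreated ones in both lines, by -0.71 ± 0.21 in D- cells (SE, limma adjusted p = 0.0116, but 0.134 without D- 24 h replicate 2) and by -2.57 ± 0.21 in WT cells (limma adjusted p = 2.44e-09). Pms2, which nicks the strand to be corrected, had 7.14, 6.81 and 7.44 in D- cells at 24 h, against 7.71, 7.36, 7.32 and 7.70 untreated. Values in WT cells were 6.76, 6.62 and 6.55 at 24 h, against 7.46, 7.66, 7.83 and 7.43 untreated. Its D- arrays overlapped, and its changes were -0.39 ± 0.16 in D- cells, not called, and -0.95 ± 0.16 in WT cells (SE, limma adjusted p = 2.55e-05). Msh6, which recognises single mispairs, changed by 0.26 ± 0.13 in D- cells at 24 h, not called, and fell by -0.62 ± 0.13 in WT cells. Msh3, which recognises longer loops, fell at 2 and 6 h in both lines and was called in neither at 24 h, with -0.31 ± 0.14 in D- cells and -0.20 ± 0.14 in WT cells.

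Of the genes that act beside the replication fork, Blm, the helicase of Bloom syndrome, read 9.06, 8.83 and 9.05 in D- cells at 24 h, against 9.13, 9.07, 9.07 and 9.19 untreated. WT cells read 8.17, 7.45 and 7.77 at 24 h, against 8.92, 9.13, 9.32 and 9.22 untreated. The D- change was -0.14 ± 0.14 (SE, not called) and the WT change -1.35 ± 0.14 (limma adjusted p = 5.87e-08). Rad18, the ubiquitin ligase that lets polymerases bypass damage, had 7.26, 7.01 and 6.98 in D- cells at 24 h, against 7.59, 7.26, 7.48 and 7.59 untreated. WT arrays gave 6.31, 5.81 and 6.06 at 24 h, against 7.29, 7.19, 7.48 and 7.05 untreated. It fell by -0.39 ± 0.13 in D- cells (SE, limma adjusted p = 0.0236), where 1 treated array touched the untreated range and leaving out any of 4 arrays ended the call (adjusted p up to 0.1), and by -1.19 ± 0.13 in WT cells (limma adjusted p = 1.25e-07).

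At 24 h nucleotide excision repair had more rises than falls. In D- cells 2 of 6 genes were higher and 0 lower (16% and 17.4% of all probe sets), and in WT cells 3 higher and 1 lower (24.6% and 28%). At 2 and 6 h the counts in D- cells were 0 and 1 higher and 1 and 1 lower. In WT cells they were 2 and 2 higher and 1 and 0 lower at those times. Ercc5, the nuclease that cuts 3' of the lesion, read 7.70, 8.14 and 8.44 in D- cells at 24 h, against 7.11, 7.33, 7.31 and 6.92 untreated. Values in WT cells were 8.96, 9.51 and 9.65 at 24 h, against 7.03, 6.89, 7.72 and 7.49 untreated. All treated arrays were above all untreated ones. Its rise was 0.93 ± 0.21 in D- cells (SE, limma adjusted p = 0.00155) and 2.09 ± 0.21 in WT cells (limma adjusted p = 3.94e-08), 4.25-fold, and in WT cells it had risen by 0.63 ± 0.21 at 2 h (adjusted p up to 0.197 when any of 4 arrays was left out) and 1.37 ± 0.21 at 6 h. Xpa, which checks the damaged strand, had 8.29, 8.07 and 8.25 in D- cells at 24 h, against 7.75, 7.74, 7.40 and 7.24 untreated. WT cells read 8.55, 9.02 and 8.73 at 24 h, against 7.56, 7.22, 7.12 and 7.11 untreated. It rose without overlap by 0.67 ± 0.14 in D- cells (SE, limma adjusted p = 0.000889) and by 1.51 ± 0.14 in WT cells (limma adjusted p = 1.59e-08).

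Xpc, the first sensor of bulky lesions, fell at 2 h in both lines. It read 5.25, 3.78 and 4.55 in D- cells at 2 h, against 6.50, 6.58, 6.13 and 6.25 untreated. WT arrays gave 5.88, 5.47 and 5.76 at 2 h, against 7.13, 6.81, 7.27 and 6.95 untreated. No treated array reached an untreated one. Because the D- mean at 2 h lay under log2 5, its fall is given as a bound of -1.37 on the log2 scale. The limma adjusted p of 2.18e-05 is that of the D- values as measured, not of the bound. The WT change was -1.34 ± 0.27 (SE, limma adjusted p = 0.000658). At 24 h Xpc read 6.69, 6.62 and 6.95 in D- cells and 7.99, 7.92 and 7.87 in WT cells, above every untreated array of the same line, and limma did not call the change in D- cells (0.39 ± 0.27, adjusted p = 0.294) but called the rise in WT cells (0.89 ± 0.27, adjusted p = 0.00757). Ercc1, a subunit of the nuclease that cuts 5' of the lesion, fell in WT cells at 24 h by -0.58 ± 0.20 (limma adjusted p = 0.0181, up to 0.0936 when any of 3 arrays was left out). The helicases Ercc2 and Ercc3 of the TFIIH complex were called in neither line at 24 h, with values between -0.20 and -0.06.

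End joining genes were called lower mainly at 6 h. At 6 h 3 of 5 genes fell and 1 rose in D- cells (14.9% and 15.4% of all probe sets), and 4 fell and 1 rose in WT cells (18.6% and 17.6%). Prkdc was among the falls at 6 h in both lines. Its call was ended by leaving out any of 2 arrays in D- cells (limma adjusted p up to 0.0676) or of 4 in WT cells (up to 0.179). At 24 h 1 of 5 fell in each line (17.4% of all probe sets in D- cells and 28% in WT cells). Xrcc6, the Ku70 subunit that caps broken ends, averaged 11.38 ± 0.02 in untreated D- cells (SD, n = 4) and 10.94 ± 0.19, 10.24 ± 0.24 and 11.86 ± 0.18 at 2, 6 and 24 h (SD, n = 3 each). In WT cells its means were 10.88 ± 0.10 untreated (SD, n = 4) and 10.40 ± 0.19, 9.66 ± 0.65 and 10.68 ± 0.17 (SD, n = 3 each). The 6 h falls were -1.14 ± 0.19 in D- cells (SE, limma adjusted p = 0.000118) and -1.22 ± 0.19 in WT cells (limma adjusted p = 4.3e-05).

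Xrcc5, the Ku80 subunit, read 9.61, 9.15 and 9.54 in D- cells at 24 h, against 10.02, 9.89, 9.65 and 9.86 untreated. Values in WT cells were 9.59, 9.11 and 9.11 at 24 h, against 9.95, 9.90, 10.04 and 10.08 untreated. It fell by -0.42 ± 0.14 in D- cells (SE, limma adjusted p = 0.0204, up to 0.177 without D- 24 h replicate 2 or untreated D- replicate 1) and by -0.72 ± 0.14 in WT cells (limma adjusted p = 0.00013). Trp53bp1, which protects ends from resection and so favours end joining, rose at 6 h by 0.83 ± 0.23 in D- cells (limma adjusted p = 0.00951) and 0.67 ± 0.23 in WT cells (limma adjusted p = 0.0278). At 24 h Trp53bp1 read 9.33, 9.98 and 10.24 in D- cells, against 9.03, 9.34, 9.46 and 9.55 untreated. WT cells read 10.03, 9.93 and 10.13 at 24 h, against 9.23, 9.14, 9.86 and 9.87 untreated, a change of 0.50 ± 0.23 in each line that was not called. The 6 h call was lost without D- 6 h replicate 2 in D- cells (adjusted p 0.0544) and without any of 4 arrays in WT cells (adjusted p up to 0.144). Xrcc4, which aligns the ligase, was called at no time in D- cells and fell in WT cells at 2 and 6 h, by -0.42 ± 0.15 and -0.46 ± 0.15 (adjusted p up to 0.247 and 0.15 when any of 4 and 2 arrays was left out).

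Chek2, Msh3, Msh6, Rad1, Rad50 and Xpc were called lower at 2 h in both lines (8.8% of all probe sets), and 14 genes were called lower at 6 h in both (12.6% of all probe sets). Of the 14, Fanca, Mre11a, Parp2 and Prkdc lost the 6 h call in at least 1 line when 1 array was left out (adjusted p up to 0.182). Chek1 had a 6 h change of -0.72 ± 0.30 in D- cells, not called, and of -0.80 ± 0.30 in WT cells (limma adjusted p = 0.0381, up to 0.118 when any of 6 arrays was left out). Exo1 fell at 6 h by -0.87 ± 0.21 in D- cells and -0.84 ± 0.21 in WT cells, and Rad54l by -0.83 ± 0.22 and -0.78 ± 0.22. Apex1 fell at 6 h by -0.95 ± 0.20 in D- cells and -1.12 ± 0.20 in WT cells. On its brightest probe set Rad54l was not called at 2 h (-0.38 in D- and -0.26 in WT cells). Its dimmer probe sets were called lower then, by -0.79 and -0.86 in D- cells and -0.75 and -0.71 in WT cells. The brightest Rad51ap1 probe set was not called at 6 h (-0.55 in D- and -0.47 in WT cells), nor was the next brightest. The dimmer ones were called lower, by -0.67 and -0.65 in D- cells and -0.61 and -0.69 in WT cells.

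The difference of response, D- minus WT, was tested as an interaction at each time. At 2 and 6 h limma called 0 of 47 repair genes (0.212% and 0.519% of all probe sets), and 3 and 2 genes had an unadjusted p under 0.05. Alternatives called 0 at 2 h and between 0 and 2 at 6 h (Parp1 and Ercc5 with array weights). At 24 h 23 of 47 were called (11.8% of all probe sets), 20 of them higher in D- (7.1%) and 3 lower (4.69%), and the median difference was 0.58. All 20 with the higher response in D- were genes that fell in WT cells at 24 h. Both calls use the same treated and untreated WT arrays, so this overlap is partly built in and is no separate result. The other 13 genes that fell in WT cells, among them Apex1, Atm, Atr and Rad50, had no called difference.

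The largest differences at 24 h were those of Chek1, 2.39 ± 0.42 (SE, limma adjusted p = 0.000554), Rad51ap1, 2.22 ± 0.30 (limma adjusted p = 4.87e-05), Ung, 2.15 ± 0.68 (limma adjusted p = 0.0421, up to 0.163 when any of 9 arrays was left out), and Rad51c, 2.13 ± 0.25 (limma adjusted p = 1.14e-05). By pathway, 5 of 7 recombination genes, 2 of 3 MRN genes, all 3 Fanconi genes, 3 of 8 base excision genes, 2 of 4 mismatch genes, 3 of 8 checkpoint genes and 2 of 3 genes of the RecQ and post-replication list were called with the higher response in D-. Of these calls, that of Fancc was ended by leaving out any of 11 arrays, of Nbn any of 10 and of Fancg any of 9, the other Fancc probe set gave -0.17 (not called), and Bard1 was not called with values under log2 5 set to 5 (0.48). End joining had 0 of 5 called by limma (1 with an unadjusted p under 0.05), with values between -0.15 and 0.67. The 3 genes with the lower response in D- were Ercc5, -1.16 ± 0.30 (limma adjusted p = 0.0118), Xpa, -0.84 ± 0.20 (limma adjusted p = 0.00702), and Lig3, -0.56 ± 0.17 (limma adjusted p = 0.0327). The other Lig3 probe sets had no called difference and gave -0.01, -0.07 and 0.13, and Parp1 was called on its 2 other probe sets (0.75 and 0.77) but not on the brightest (0.61).

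**Figure D3:**
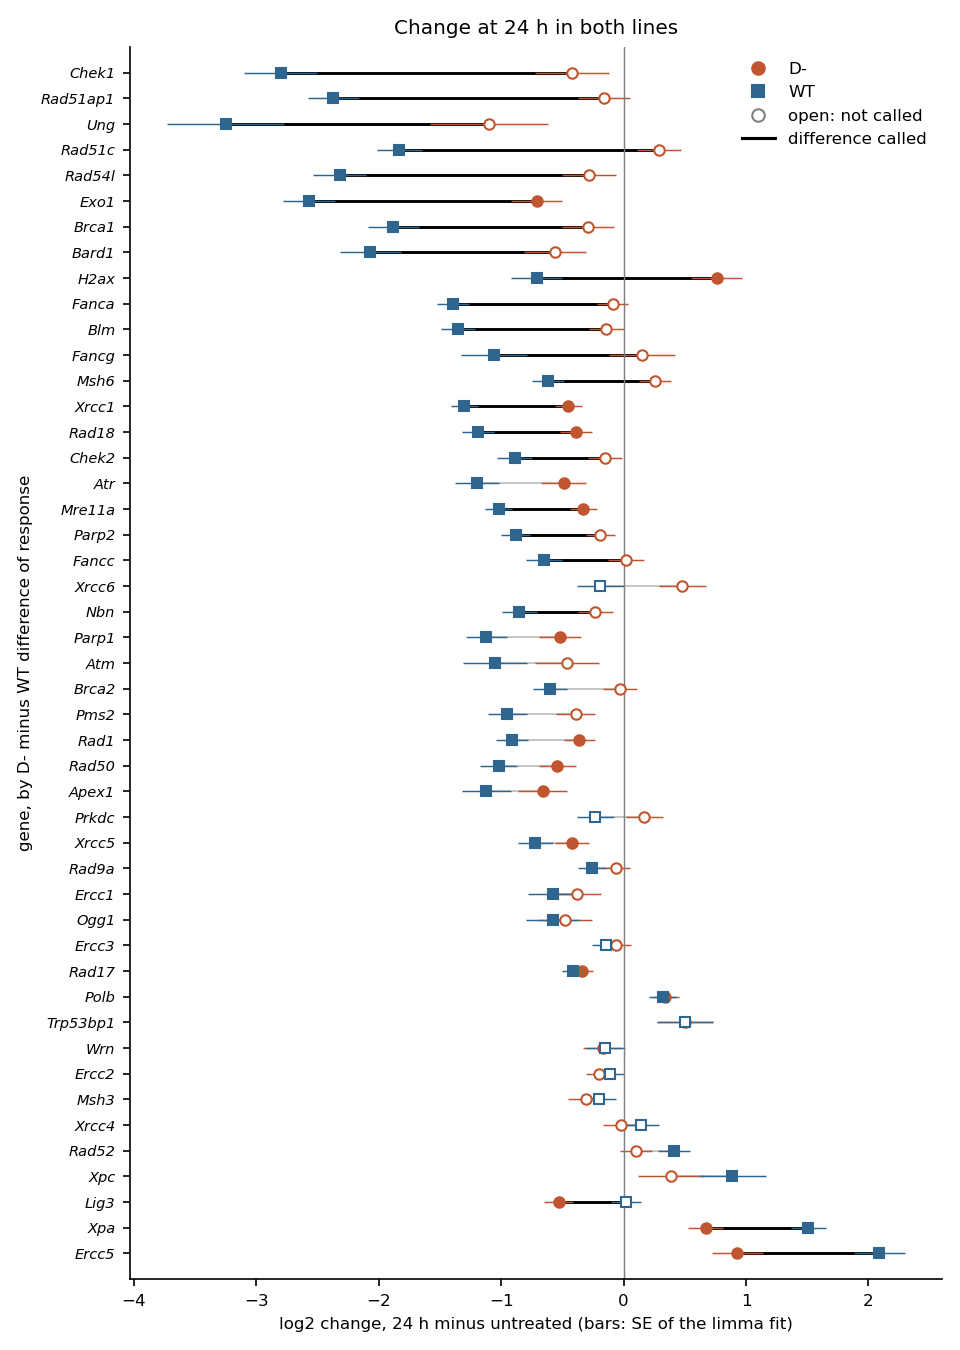
Log2 change at 24 h against untreated cells of the same line for the 47 genes, D- as orange circles and WT as blue squares, sorted by the D- minus WT difference, with bars of 1 SE. Filled symbols and black connecting lines mark what limma called. WT lies left of D- for the upper genes, from Chek1 down, and right of it for Ercc5 and Xpa at the foot.

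Within cluster 2, 37 of 47 genes were called in WT cells at 24 h (32 lower, with 55.2% of all probe sets called) and 28 differences of response were called (17.9% of all probe sets). Within cluster 1, where each treated group is 1 array and its spread is assumed to equal that of the other groups, 27 genes were called in WT cells (23 lower, with 28.5% of all probe sets called), and limma called 0 differences of response (0.0393% of all probe sets). The median difference of response was 0.35 in cluster 1 and 0.76 in cluster 2, and the median WT change was -0.56 and -0.95. Chek1 fell in WT cells by -1.46 within cluster 1 and by -3.56 within cluster 2, and H2ax changed by -0.12 (limma adjusted p = 0.703) and -0.92 (adjusted p = 0.00126). Across the 33 genes that fell in WT cells, replicate 1 at 24 h was the highest of the 3 arrays for 22 and replicate 2 the lowest for 24. In D- cells at 24 h, 16 genes were called within cluster 2 (39.9% of all probe sets) and 1 within cluster 1 (6.49% of all probe sets). Across the genes that fell in WT cells, the median deviation from the untreated mean was -0.84, -1.32 and -1.10 on replicates 1, 2 and 3, and over all 3569 probe sets called lower it was -0.64, -0.97 and -0.86. In bulk RNA, fewer cells of a type and less RNA per cell cannot be told apart.

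Promoter windows from RefSeq (build GRCm38.p6, 250 bases before to 50 after the start) were available for 39 of the 51 genes. The windows of the 4 genes with the deepest fall in WT cells at 24 h that had an entry, and of the 2 with the highest rise, are printed to show what letters stand at genes that moved in opposite directions. They are Ung at chr5:114130185-114130484 (plus strand), Chek1 at chr9:36726609-36726908 (minus strand), Rad51ap1 at chr6:126939538-126939837 (minus strand), Rad54l at chr4:116123641-116123940 (minus strand), Ercc5 at chr1:44147494-44147793 (plus strand) and Xpa at chr4:46196262-46196561 (minus strand). Each runs 5′ to 3′ on the strand of the gene. Capitals mark TGACG or CGTCA, the core of the cAMP response element on either strand, and GGCGGGAA, a core letter run of E2F sites.
Ung: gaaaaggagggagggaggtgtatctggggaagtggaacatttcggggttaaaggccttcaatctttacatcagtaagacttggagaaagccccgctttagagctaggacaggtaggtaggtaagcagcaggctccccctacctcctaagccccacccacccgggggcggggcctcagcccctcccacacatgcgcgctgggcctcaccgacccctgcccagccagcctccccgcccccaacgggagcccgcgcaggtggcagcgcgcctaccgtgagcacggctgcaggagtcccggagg
Chek1: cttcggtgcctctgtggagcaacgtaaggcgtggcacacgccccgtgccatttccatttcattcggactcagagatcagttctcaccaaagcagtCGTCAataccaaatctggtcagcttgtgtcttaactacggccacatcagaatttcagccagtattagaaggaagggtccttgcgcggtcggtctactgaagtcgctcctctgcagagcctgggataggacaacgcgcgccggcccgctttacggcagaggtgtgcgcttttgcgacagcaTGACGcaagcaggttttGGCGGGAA
Rad51ap1: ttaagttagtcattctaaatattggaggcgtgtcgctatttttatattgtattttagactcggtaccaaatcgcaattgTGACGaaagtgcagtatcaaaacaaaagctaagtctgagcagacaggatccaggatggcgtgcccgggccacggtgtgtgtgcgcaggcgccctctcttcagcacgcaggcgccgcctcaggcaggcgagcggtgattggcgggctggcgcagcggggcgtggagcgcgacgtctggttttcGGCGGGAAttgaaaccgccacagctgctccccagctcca
Rad54l: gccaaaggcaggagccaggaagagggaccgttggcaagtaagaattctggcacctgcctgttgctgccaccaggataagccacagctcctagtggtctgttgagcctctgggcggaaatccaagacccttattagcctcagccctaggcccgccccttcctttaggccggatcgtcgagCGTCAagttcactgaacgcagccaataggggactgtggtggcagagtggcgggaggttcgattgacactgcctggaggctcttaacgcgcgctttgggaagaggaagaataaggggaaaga
Ercc5: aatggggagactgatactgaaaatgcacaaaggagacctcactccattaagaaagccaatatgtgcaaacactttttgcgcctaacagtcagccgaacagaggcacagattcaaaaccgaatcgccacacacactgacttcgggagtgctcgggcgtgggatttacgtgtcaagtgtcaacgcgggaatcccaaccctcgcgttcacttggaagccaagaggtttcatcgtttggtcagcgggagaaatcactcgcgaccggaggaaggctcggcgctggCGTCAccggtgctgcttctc
Xpa: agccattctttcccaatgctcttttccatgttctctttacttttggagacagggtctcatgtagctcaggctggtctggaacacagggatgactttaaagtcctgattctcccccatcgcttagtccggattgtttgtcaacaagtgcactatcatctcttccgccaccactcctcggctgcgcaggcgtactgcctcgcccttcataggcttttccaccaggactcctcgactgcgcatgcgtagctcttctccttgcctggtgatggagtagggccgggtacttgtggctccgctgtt
Chek1 and Rad51ap1 hold both letter runs, Rad54l and Ercc5 hold the cAMP core only, and Ung and Xpa hold neither. Because GGCGGGAA was chosen after these windows were read, which of them hold it is not a result. The Ercc5 window holds cgcgggaa, which differs from it in the first letter.

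Over the windows, the E2F-type runs TTTCCCGC, TTTGGCGC, TTTCGCGC and TTTGCCGC, searched on both strands, stood in 8 of 39 repair genes (20.5%), against 2.32% of 27025 windows, which cover genes of all types. None of the 6 printed windows held 1 of these 4 runs. The share was 21.4% of 28 genes that fell in WT cells at 24 h and 22.2% of 9 measured genes that did not. GGCGGGAA was chosen after the windows were read, and it shares letters with TTTCCCGC read on the other strand. It stood in Chek1, Msh6 and Rad51ap1, 3 of 39 windows (7.69%), against 2.24% of all. The core TGACG stood in 53.8% of repair windows, against 21% of all. It stood in 50% of those that fell in WT cells and in 66.7% of those that did not. In 22 windows of DNA replication genes, TGACG stood in 50%, the E2F-type runs in 50% and GGCGGGAA in 18.2%. These letter runs are thus not particular to the repair genes. Of repair windows, against all windows, the whole cAMP element TGACGTCA stood in 5.13% against 1.88%, the CCAAT box in 48.7% against 37.9%, and TTTGAA, a letter run of cell cycle promoters, in 5.13% against 18.1%, all on both strands. A match describes letters and is not evidence of binding.

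Before treatment, limma called 1 of 47 genes between the lines (4.53% of all probe sets, 1.79% higher and 2.74% lower in D-), Prkdc, the large catalytic subunit of the end-joining kinase, with 5 genes at an unadjusted p under 0.05. Prkdc read 6.76, 7.23, 6.80 and 7.10 in untreated D- cells, against 7.13, 7.61, 7.83 and 7.42 in untreated WT cells, so the groups overlapped. The difference was -0.52 ± 0.14 (SE, limma adjusted p = 0.0353), and leaving out any of 6 arrays ended the call (adjusted p up to 0.15). The median over the 47 genes was -0.06.

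A further list held repair genes outside the members. Of 51 with a measured probe set, 2 rose and 13 fell in D- cells at 24 h (16% and 17.4% of all probe sets), with a median of -0.23. In WT cells 3 rose and 33 fell (24.6% and 28% of all probe sets), with a median of -0.66. A difference of response was called for 19, all higher in D- (7.1% of all probe sets). In WT cells the lowest were Eme1, a partner of the nuclease Mus81, at -2.30 ± 0.24 (SE), the fork protector Timeless at -2.07 ± 0.28 and the single-strand binding subunit Rpa2 at -2.01 ± 0.24. The highest called in WT cells were Mus81 at 0.83 ± 0.11, the ultraviolet damage sensor Ddb2 at 0.62 ± 0.15 and the glycosylase Mpg at 0.38 ± 0.13. In D- cells the lowest were Rev1, a polymerase of damage bypass, at -1.46 ± 0.18, the clamp subunit Hus1 at -0.81 ± 0.20 and the helicase Recql4 at -0.77 ± 0.17, and Aptx and Mus81 rose by 0.66 ± 0.14 and 0.54 ± 0.11.

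Genes of the DNA replication machinery and of mitosis moved on the same arrays. Of 27 replication genes, 4 fell and 2 rose in D- cells at 24 h (17.4% and 16% of all probe sets), with a median of -0.35. In WT cells 26 fell (28% of all probe sets), with a median of -2.02, and 26 differences of response were called (11.8% of all probe sets). Of 20 mitosis genes, 4 fell in D- cells (median -0.24) and 19 in WT cells (median -1.62), with 18 called differences. The falls of both lists in D- cells were near the share over all probe sets. The median of the repair genes in WT cells at 24 h, -0.85, was smaller in size than those of both lists, and the recombination median of -1.88 lay between them. The part of replication and mitosis in the change of the repair genes was not tested.

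**Figure D4:**
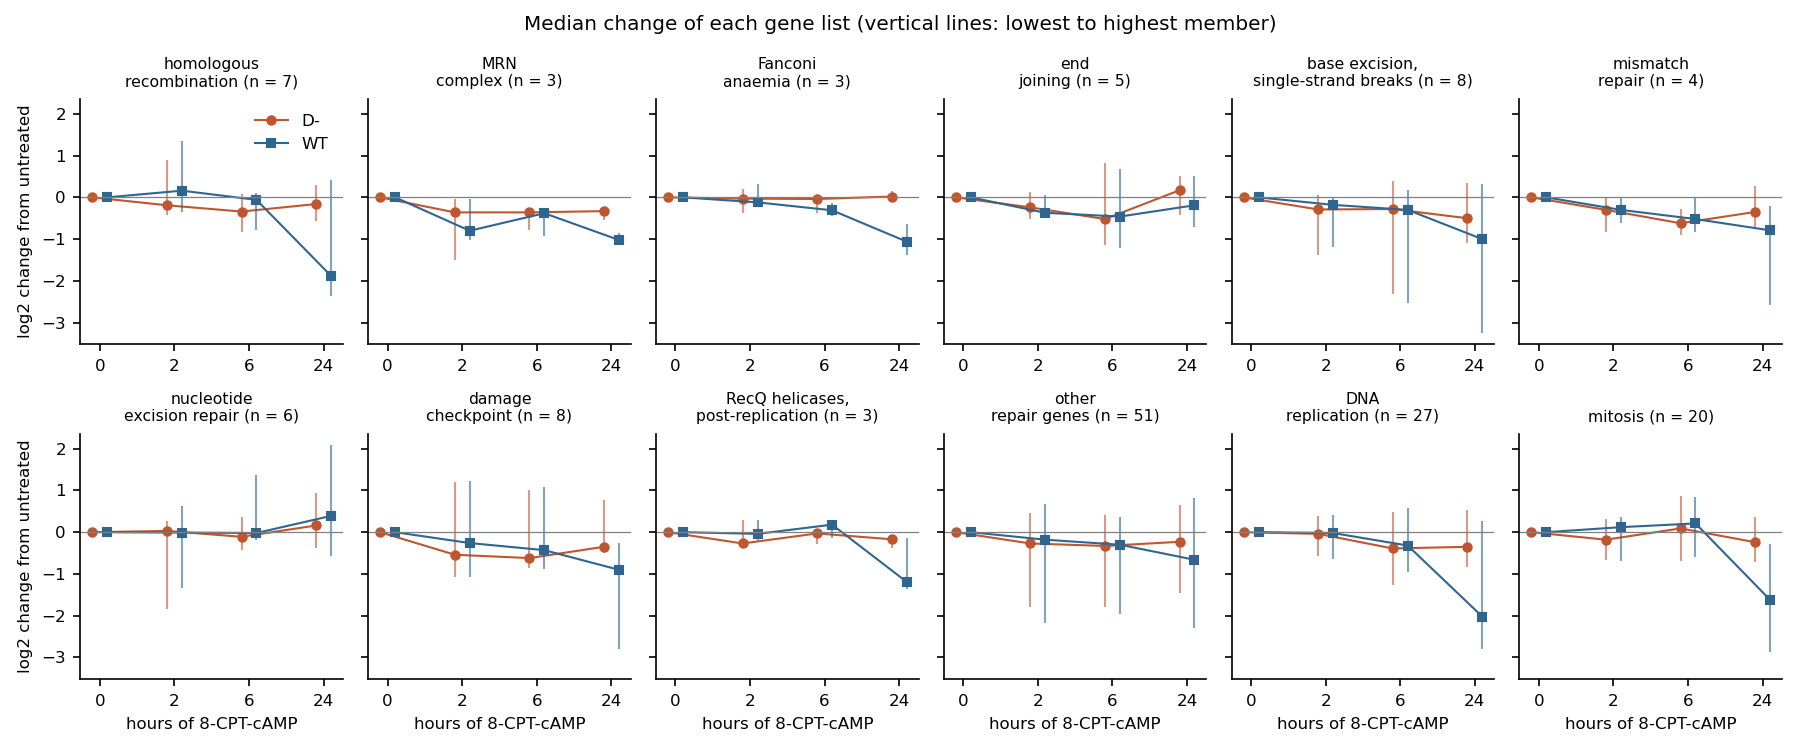
Median log2 change from untreated cells at 0, 2, 6 and 24 h (evenly spaced) for each repair pathway, the further repair genes, DNA replication and mitosis, with D- in orange and WT in blue and vertical lines from the lowest to the highest gene of the list. Recombination, replication and mitosis drop most in WT at 24 h (medians -1.88, -2.02 and -1.62), and nucleotide excision repair is above 0 (0.39).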

How the data were processed

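RNA of 26 S49 samples was measured on single-colour Affymetrix arrays, 1 per sample. The authors deposited intensity on a linear scale, between 2 and 83530.7, made with GCRMA, per the submitters' processing notes, whose version the sources used here do not give. The method subtracts a modelled background and normalizes between arrays, so small differences near its floor and a shift shared by most genes are hard to see. No pseudocount was added before taking log2. Of 22690 probe sets, 64 controls were dropped, and 12724 with log2 of 5 or more on at least 3 arrays were tested. Names came from the platform annotation, for the 20380 probe sets it gives 1 symbol (691 had several and 1555 none).

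Groups and replicate numbers are those of the labels. One model with 8 group means and 10 contrasts, 18 residual and 3.34 prior degrees of freedom, was fitted to all arrays with limma 3.58.1 (lmFit, eBayes; two-sided) under R 4.3.3. Benjamini-Hochberg adjustment ran within a contrast over all probe sets, with calls under 0.05. The times of a line share its untreated arrays, so their values stand side by side. Where a group's mean was below log2 5, the change is a bound taken at 5, and its p is that of the fit to the values as measured. The fit was tested on simulated data.

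The members and lists were chosen with earlier results of these data known. Values per array are given for the 6 lowest and 4 highest called members per line at 24 h, the 4 largest called differences between lines, and the 2 largest changes per pathway, and of the other repair genes the 3 lowest and 3 highest called per line are named. The time courses of Brca1 and Xrcc6 and the motif GGCGGGAA were chosen after their values or windows were seen. Array clusters were split by sign on the leading principal axis of the arrays' residuals. Alternatives changed the variance model, weighting, arrays fitted, normalization, floor, filter (log2 7, or none), rule for several probe sets, blocks (replicate number or cluster) and arrays (1 cluster, or 1 left out). Figures used matplotlib 3.10.9 in Python 3.11.15.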

Additional observations from a re-analysis of the deposited data

Results flagged for a closer look

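Among 94 untreated groups of 4 arrays (47 genes in each line), 6 held 1 array set apart from the other 3 beyond Dixon's critical value of 0.829, where chance gives about 1 in 20 groups. Bard1 read 6.66 on untreated WT replicate 2, against 5.77 to 5.89 on the others. Xrcc4 read 8.12 on untreated D- replicate 3 (others 8.53 to 8.59). Polb read 10.06 on untreated WT replicate 4 (others 9.91 to 9.92). Ercc2 read 7.26 on untreated D- replicate 3 (others 6.91 to 6.94). Atr read 8.33 on untreated WT replicate 3 (others 7.73 to 7.82). Rad17 read 9.95 on untreated D- replicate 3 (others 10.14 to 10.15).

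The change at 24 h differed between D- and WT cells, by the interaction term of limma, for 23 of 47 genes. The 20 with a higher response in D- cells had log2 differences, D- minus WT, of 2.39 for Chek1, 2.22 for Rad51ap1, 2.15 for Ung, 2.13 for Rad51c, 2.04 for Rad54l, 1.86 for Exo1, 1.59 for Brca1, 1.51 for Bard1, 1.46 for H2ax, 1.30 for Fanca, 1.21 for Fancg and 1.21 for Blm. The others of these were 0.88 for Msh6, 0.85 for Xrcc1, 0.80 for Rad18, 0.74 for Chek2, 0.69 for Parp2, 0.69 for Mre11a, 0.67 for Fancc and 0.61 for Nbn. The 3 with a lower response in D- cells had -0.56 for Lig3, -0.84 for Xpa and -1.16 for Ercc5. Leaving out any of 11 arrays ended the call for Fancc, of 10 for Nbn, of 9 each for Ung, Lig3 and Fancg, and of 1, WT 24 h replicate 3, for Chek2 (adjusted p 0.0599). The dimmer Fancg probe set gave a difference of 0.46 that was not called (limma adjusted p = 0.329). For Bard1, setting values under log2 5 to 5 gave 0.48 (limma adjusted p = 0.412).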

How the results depend on the processing

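With all arrays kept, 4926 of 5150 values of single genes kept their direction and side of the threshold, 85 lost a call, 138 gained one and 1 reversed, Lig3 in WT cells at 24 h, at -0.40 with the mean of its probe sets (limma adjusted p = 0.00497). Within cluster 1, which has 1 array per treated group, the counts of called genes fell to 5, 2 and 1 in D- cells at 2, 6 and 24 h (from 16, 23 and 16 with all arrays), to 2 and 5 in WT cells at 2 and 6 h (from 13 and 22), and to 0 for the difference of response at 24 h (from 23). Of all probe sets, 6.02%, 6.58% and 6.49% were then called in D- cells and 5.46% and 10.7% in WT cells. Msh6 in WT cells at 6 h reversed to 0.11 (limma adjusted p = 0.585). For untreated D- minus untreated WT the 1 call became 2 with array weights, with only the groups compared and with values under log2 5 set to 5, 0 with no filter and within cluster 1, and 4 within cluster 2. For the difference at 6 h the 0 calls became 2 with array weights, and 1 with the replicate block, with the cluster as a block and within cluster 2. The cause of these moves was not tested, and a fit within a cluster also has fewer arrays.

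Leaving out 1 array gave counts of 10 to 14 in D- cells at 2 h, 15 to 21 at 6 h and 8 to 17 at 24 h, and of 10 to 14, 13 to 23 and 33 to 37 in WT cells at those times. The counts were 0 to 1 for the untreated lines, 0 at 2 and 6 h and 18 to 23 at 24 h for the difference of response. The lowest came without untreated D- replicate 4, D- 6 h replicate 3, D- 24 h replicate 2 and, in WT cells at 6 h, WT 6 h replicate 3. The untreated count was 0 without untreated D- replicates 1, 3 or 4 or untreated WT replicates 2, 3 or 4. Of 85 pairs of same-numbered samples, 68 had a correlation of deviations over 0.1 (range -0.468 to 0.655), and for replicate 1 all were between 0.194 and 0.655. The numbers were not taken as pairs, because each comparison with untreated cells and between the untreated lines held a pair under 0.1, mostly that of untreated replicate 2. With the replicate block the counts were 17, 22 and 19 in D- cells, 15, 19 and 38 in WT cells, 1 untreated, and 0, 1 and 24 for the difference of response.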
